A study of Mus musculus with 10 samples.

Results

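The genes of a stress-signaling axis were followed in interscapular brown adipose tissue (iBAT) of mice lacking Crls1, the cardiolipin synthase, in adipocytes. They are Gdf15 and Fgf21, a pair of secreted factors that are released under mitochondrial stress and are therefore called mitokines, and Klb and Fgfr1, which encode the co-receptor and the main receptor through which fat cells sense FGF21. These 4 of the 15075 deposited genes were chosen by symbol, with earlier results of the same contrast known, so their levels are given as a description without a test. RNA came from 5 Control and 5 AdCKO mice, with 1 library per mouse. All mice were C57BL/6, 20 weeks old and housed at room temperature, and their sex is not given in the sources used here. Control mice carried the floxed Crls1 allele (exon 4 between loxP sites) without Cre, and the labels call them wild-type. AdCKO mice carried the same floxed allele together with Adipoq-Cre, which is active in adipocytes, white as well as brown. The values are normalized reads per kb of counted exon, so that levels of different genes can be set side by side.

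GDF15 is a distant member of the TGF-beta superfamily that acts on the brainstem, where the receptor GFRAL works together with RET to lower food intake. FGF21 is an endocrine member of the fibroblast growth factor (FGF) family that binds a complex of the co-receptor beta-Klotho (the Klb product) with an FGF receptor, mostly FGFR1, and signals through the kinases MEK and ERK. The liver is the main source of circulating FGF21, but brown fat makes it when stimulated, and transcription of both mitokine genes is known to be raised by ATF4 and its partners in the integrated stress response.

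Because both mitokine genes are textbook targets of stress-response factors, the 250 bases before their annotated starts are shown, as given by RefSeq on GRCm38.p6. Capitals mark a match to the composite element of ATF4 and C/EBP factors, TGATGNAA, or to an E-box, CACGTG. Both strands were searched, also for the cAMP response element TGACGTCA and the AP-1 site TGANTCA, and no matches overlapped each other. RefSeq gives Gdf15 a pair of starts, upstream by 460 and 821 bases of the 5′ end of the counted transcript, whereas for Fgf21 both ends are the same base. The windows are chr7:45615491-45615740 on the minus strand for Fgf21, and chr8:70632096-70632345 and chr8:70632457-70632706 on the minus strand for Gdf15.
Fgf21: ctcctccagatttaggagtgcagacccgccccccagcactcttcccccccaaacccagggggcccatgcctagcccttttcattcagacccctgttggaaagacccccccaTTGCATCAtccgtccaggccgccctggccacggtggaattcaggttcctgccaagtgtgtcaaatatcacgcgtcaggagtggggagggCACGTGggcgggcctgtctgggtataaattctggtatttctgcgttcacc
Gdf15, nearer start: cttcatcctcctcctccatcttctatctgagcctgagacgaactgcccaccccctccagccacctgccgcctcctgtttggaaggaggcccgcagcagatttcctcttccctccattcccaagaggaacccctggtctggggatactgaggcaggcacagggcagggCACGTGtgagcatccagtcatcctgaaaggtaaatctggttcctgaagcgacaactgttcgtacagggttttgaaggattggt
Gdf15, farther start: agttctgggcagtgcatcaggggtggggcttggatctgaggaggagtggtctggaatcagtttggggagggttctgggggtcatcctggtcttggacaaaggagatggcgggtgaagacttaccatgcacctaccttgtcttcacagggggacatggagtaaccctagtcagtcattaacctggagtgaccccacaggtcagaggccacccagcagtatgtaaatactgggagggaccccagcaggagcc

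The Fgf21 window held the composite element, read as TTGCATCA on the gene's strand, from 139 to 132 bases before the start, and an E-box from 50 to 45 bases before it. The nearer Gdf15 window held an E-box from 83 to 78 bases before its start, and the farther one held none of the 4 motifs. The 250 bases before the 5′ end of the counted Gdf15 transcript lie outside both windows and were not searched. Among all 32851 windows of this length, 3.45% held the composite element, 6.02% the E-box, 1.55% the cAMP response element and 6.75% the AP-1 site. A window was also at hand for Klb, on chromosome 5, and it held none of the 4 motifs. These matches are letters in a window and say nothing about binding, which was not measured.

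Each of the 4 genes was counted on 1 RefSeq transcript. On mm9, the build the reads were mapped to, Gdf15 (NM_011819) lies on the minus strand at chr8:73153293-73155534 with 1084 counted bases. Fgf21 (NM_020013) lies on the minus strand at chr7:52869260-52870860 with 947 counted bases. Klb (NM_031180) lies on the plus strand at chr5:65739650-65775242 with 3439 counted bases, and Fgfr1 (NM_001079909) on the plus strand at chr8:26629231-26686190 with 4758. An annotated noncoding RNA, Gm16159, overlaps Fgfr1 on the opposite strand, and the strand setting of the counting is not given in the sources used here, so its reads could not be told apart from those of Fgfr1.

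Gdf15 was scarce in Control and abundant in AdCKO. In Control libraries 1 to 5 its level was 15.3, 14.7, 17.5, 15.4 and 18.5 normalized reads per kb. In AdCKO libraries 1 to 5 it was 750.4, 814, 1185, 476 and 699. Every AdCKO library was far above every Control library, and within AdCKO library 3 stood highest and library 4 lowest. The means were 16.3 ± 1.63 (SD, n = 5) in Control and 785 ± 258 (SD, n = 5) in AdCKO, a ratio of 48.2. By mean level Gdf15 stood at rank 9599 of 15075 genes in Control and at rank 525 in AdCKO. On the log2(value + 1) scale, which understates changes of low genes, the difference was 5.45 (SE 0.19), rank 4 among the 11244 genes that reached a mean of 10 in either group.

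Fgf21 was also higher in AdCKO, by a smaller factor. Its level in Control libraries 1 to 5 was 18.7, 13.3, 17.7, 19.7 and 21.1 normalized reads per kb. In AdCKO libraries 1 to 5 it was 153, 181, 305, 101 and 202. Again no AdCKO library overlapped Control, and library 3 was the highest and library 4 the lowest. The means were 18.1 ± 2.96 (SD, n = 5) and 188 ± 75.1 (SD, n = 5), a ratio of 10.4, and the log2 difference was 3.24 (SE 0.23), rank 50 of the same 11244 genes. The rank by mean level moved from 9384 to 2463 of 15075.

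Klb, whose protein makes a cell responsive to FGF21, was slightly lower in AdCKO. Its level in Control libraries 1 to 5 was 134, 119.7, 109, 103 and 106 normalized reads per kb. In AdCKO libraries 1 to 5 it was 99.7, 84.6, 83.0, 91.2 and 100.2. All 5 AdCKO values lay below the lowest Control value, although the gap between 100.2 and 103 is narrow. The AdCKO mean of 91.7 ± 8.10 (SD, n = 5) was 80.1% of the Control mean of 114 ± 12.3 (SD, n = 5), a log2 difference of -0.31 (SE 0.087).

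Fgfr1, the receptor kinase, showed no difference in mean beyond the spread of its libraries. Its level in Control libraries 1 to 5 was 169, 149, 136, 154 and 154 normalized reads per kb. In AdCKO libraries 1 to 5 it was 161, 179, 137, 168 and 121. The groups overlapped over most of their range, with the highest and the lowest values both in AdCKO. The means were 152 ± 11.8 (SD, n = 5) and 153 ± 23.9 (SD, n = 5), and the log2 difference was -0.00 (SE 0.11).

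**Figure D1:**
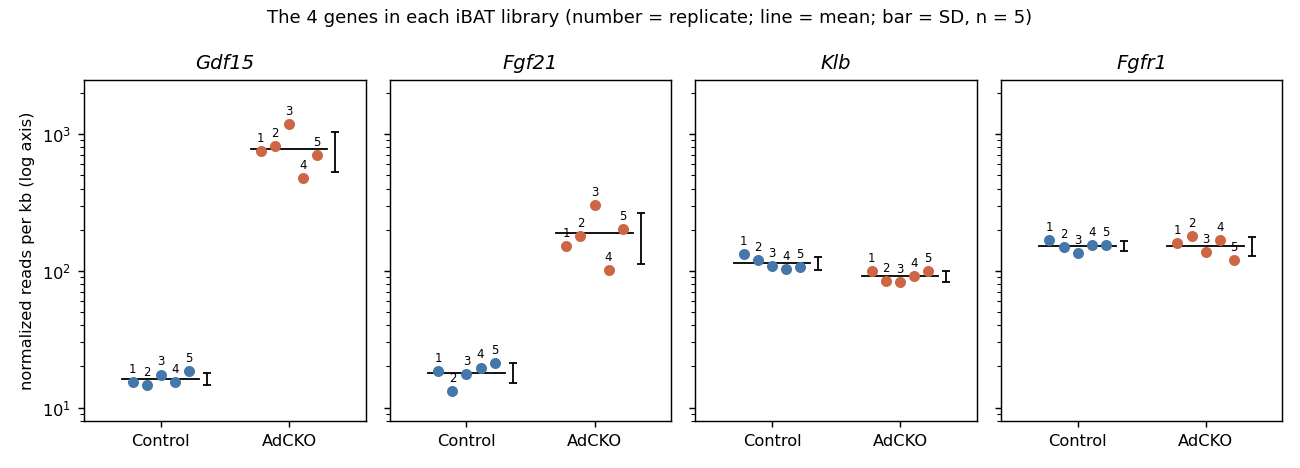
Normalized reads per kb (log axis) of Gdf15, Fgf21, Klb and Fgfr1 in each of the 5 Control and 5 AdCKO libraries. Each point is 1 library with its replicate number, lines are means and bars are SD. Mean Gdf15 is 16.3 in Control and 785 in AdCKO, mean Fgf21 is 18.1 and 188, both with no overlap, mean Klb is 114 and 91.7, and the Fgfr1 groups overlap.

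Thus 2 of the 4 genes were higher and 1 was lower in AdCKO without overlap between groups. Of all 11244 tested genes, 24.5% were higher and 26.4% were lower without overlap, and since the genes were picked with this contrast known, nothing is read from the count. The summed normalized reads of a library were fewer in AdCKO (5419800 to 5843024) than in Control (7615403 to 8171138), which bears most on the small difference of Klb. When every library was given the same total, the median log2 difference of all tested genes moved from -0.01 to 0.47. Under that scaling Klb was at 0.16 and Fgfr1 at 0.47, so the sign of the Klb difference flips although Klb stayed below the median gene, and Fgfr1 stayed at it. Gdf15 was then at 5.92 and Fgf21 at 3.70. As a share of its library's total, and as a ratio of the group means, Gdf15 was 67.5 times, Fgf21 14.6 times, Klb 1.12 times and Fgfr1 1.40 times as high in AdCKO as in Control.

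The order of the 4 genes by level turned over between the groups. In Control, Fgfr1 was highest, Klb next and the mitokines lowest, and the ranges of Fgf21 (13.3 to 21.1) and Gdf15 (14.7 to 18.5) overlapped, so their order is not set beyond their spread. In AdCKO, Gdf15 was highest, the ranges of Fgf21 (101 to 305) and Fgfr1 (121 to 179) overlapped, and Klb was lowest in every library. Within a library, the ratio of Gdf15 to Fgf21 was between 0.785 and 1.11 in Control and between 3.47 and 4.91 in AdCKO. The ratio of ligand to co-receptor, Fgf21 to Klb, was between 0.111 and 0.198 in Control and between 1.11 and 3.67 in AdCKO. The ratio of Klb to Fgfr1 overlapped between groups, at 0.673 to 0.806 in Control and 0.472 to 0.831 in AdCKO.

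The mitokine genes varied more between AdCKO mice than between Control mice. The coefficient of variation of Gdf15 was 9.99% in Control and 32.8% in AdCKO, and that of Fgf21 was 16.4% and 39.9%. The Control levels were low, and how the deposited values were made may bear on their spread. From low to high, the AdCKO libraries stood in the order 4, 5, 1, 2, 3 for Gdf15 and 4, 1, 2, 5, 3 for Fgf21. Library 4 as the lowest and library 3 as the highest was a pattern of 849 of the 11244 tested genes (7.55%). Of the 97 genes on the pathway lists described below that were tested, 15 had it, among them Atf4, Ppargc1a, Spry2, Spry4, Dusp4 and Fgfr3, but 0 of the 13 ATF4 targets described below. Atf4 matched the full order of Fgf21, as did 233 of the tested genes (2.07%). Klb and Fgfr1 stood in other orders, 3, 2, 4, 1, 5 and 5, 3, 1, 4, 2.

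The libraries of iBAT were checked against markers of the cells that such a sample may hold. The brown adipocyte markers, most of them not particular to brown fat cells, were strong in all 10 libraries and lower in AdCKO. Of 8 genes 7 were called lower, against 28.0% of all tested genes, and 0 higher. The count was 5 lower with the same total in each library and 3 under quantile normalization. Their summed level was 226845 to 258560 in Control and 138506 to 163628 in AdCKO. That sum was mostly Fabp4, the gene not called, with means of 147241 and 108235. All 10 macrophage markers were called higher in AdCKO, against 25.6% of all tested genes (9 with no filter, under quantile normalization and with a replicate block). Their sum was 470 to 1355 in Control and 6975 to 9451 in AdCKO. Itgam and Fcgr1 reached a mean of 10 in AdCKO alone, so the filter admitted them through that group. The groups of Cd14 overlapped (limma adjusted p = 0.0089). Of 7 fibroblast and progenitor markers 6 were called higher, with a sum of 1097 to 1504 against 3567 to 5704. Skeletal muscle markers stood apart in 3 AdCKO libraries, with sums of 6605, 25827 and 9863 in libraries 1, 2 and 4, against 159 and 147 in libraries 3 and 5 and 114 to 144 in Control. Of the 12 muscle markers 1, Acta1, was called higher, a count that was 12 when either AdCKO library 3 or 5 was left out and 0 when any other single library was. Of these markers Myh1, Myh2, Myh4, Actn3, Ttn and Neb passed the filter through AdCKO alone. Of 6 endothelial markers 1 was called in each direction (Pecam1 higher, Flt1 lower), and 4 were higher and 0 lower with the same total. Lymphocyte markers gave no call among 4 tested and a higher sum in AdCKO library 1 (179), and the 4 hepatocyte markers measured here, Alb included, stayed below the filter, with none at 0. The targeted gene, Crls1, was at 813 to 1291 normalized reads per kb in Control and 193 to 249 in AdCKO. In bulk tissue, fewer cells of a type and less RNA per cell cannot be told apart.

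The marker sums and the mitokines did not stand in the same order over the AdCKO libraries. The highest Gdf15 and Fgf21 levels were in AdCKO library 3, where the macrophage sum was 7440 and the muscle sum was 159. The lowest were in library 4, with a macrophage sum of 9451 and a muscle sum of 9863. Most of the macrophage sum was Lyz2, at 4714 in library 3 and 5950 in library 4. With libraries 1, 2 and 4 left out, a setting added after seeing the data, the log2 difference was 5.72 for Gdf15, 3.72 for Fgf21, -0.32 for Klb and -0.24 for Fgfr1. That setting left only AdCKO libraries 3 and 5. It dropped library 4, the lowest for both mitokines, and kept library 3, the highest. Their larger differences therefore follow from the levels given above, and nothing is read from them. Fgfr1 stood in the same order as the muscle sums, with libraries 5, 3, 1, 4, 2 from low to high. That order was shared by 189 of the 11244 tested genes (1.68%). Library 5, the lowest for Fgfr1, also had the lowest macrophage sum (6975) and fibroblast and progenitor sum (3567) of the AdCKO libraries. In libraries 3 and 5, where the muscle sums were low, Fgfr1 was at 137 and 121, against 136 to 169 in Control. What part macrophages, muscle and other non-adipocytes had in the levels of Gdf15, Fgf21, Klb and Fgfr1 was not tested.

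**Figure D2:**
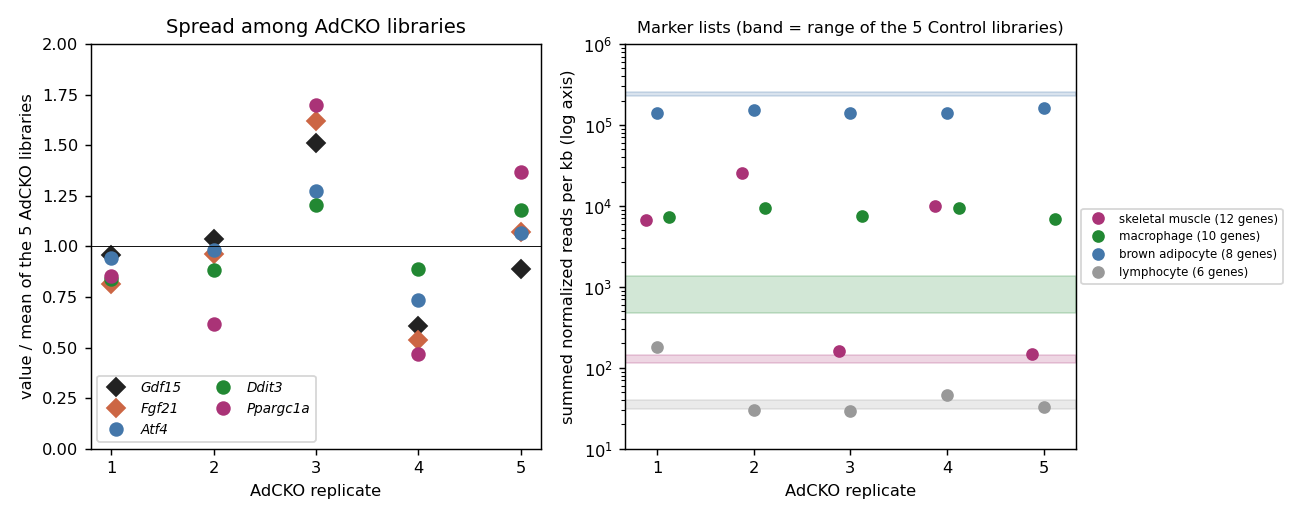
Left, the level of Gdf15, Fgf21, Atf4, Ddit3 and Ppargc1a in each of the 5 AdCKO libraries, divided by the gene's AdCKO mean. Right, summed normalized reads per kb (log axis) of 4 marker lists in the AdCKO libraries, with bands for the range of the 5 Control libraries. Library 3 is highest and library 4 lowest for Gdf15, Fgf21, Atf4 and Ppargc1a, and muscle markers stand above the Control band by far in libraries 1, 2 and 4.

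The rest of the pathway was read from lists of genes with the roles of ligands, receptors, relay, targets and regulators, and tested with limma across all 11244 genes, calling at an adjusted p under 0.01. Over all genes, 25.6% were called higher and 28.0% lower in AdCKO, with a median log2 difference of -0.01. Over the 97 tested genes on the 11 lists, 38 were called higher and 24 lower. Giving every library the same total turned this into 66 higher and 11 lower. Fgf7, Fgf10, Fgf13, Etv5, Fos, Gfra2, Fap, Pcsk5 and Aldh1l2 reached a mean of 10 in AdCKO alone and Fgf14 in Control alone, so the filter admitted them through the group where they were higher, and counts over the tested genes of their lists carry that limit.

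The other FGF receptors that passed the filter gave no call under the authors' scaling. Fgfr3 was at 15.4 ± 4.00 (SD, n = 5) in Control and 19.4 ± 3.05 in AdCKO, a log2 difference of 0.34 (limma adjusted p = 0.11), and it was called higher only with the same total in each library (0.80, limma adjusted p = 0.0012). Fgfrl1, a receptor without a kinase domain, was at 321 ± 69.0 and 283 ± 26.6, a difference of -0.16 (limma adjusted p = 0.31). Fgfr2 narrowly missed the filter, at 6.62 to 13.0 in Control and 4.25 to 5.54 in AdCKO, without overlap. With no filter, under quantile normalization, and without Control library 2, 1 receptor of the list was called lower, and it was Fgfr2. Fgfr4 stayed far below the filter at 0.355 to 0.383 and 0.352 to 0.477. Fgfr1 was thus the most abundant receptor kinase of the family in both groups, by level per kb.

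Among the other FGF ligands, 6 of 21 listed genes were tested, 3 were called higher and 2 lower, of which only Fgf11 had a mean of 10 in both groups. Fgf10, a paracrine ligand made by stromal cells and needed for fat development, was at 5.65, 9.96, 10.7, 10.3 and 9.59 normalized reads per kb in Control libraries 1 to 5. In AdCKO libraries 1 to 5 it was at 75.8, 71.9, 67.9, 72.2 and 55.4. Fgf10 was thus higher in every AdCKO library by a log2 difference of 2.79 (SE 0.15, limma adjusted p = 3.1e-08). Fgf7, a ligand of the same receptor isoform, rose from 4.88 ± 0.969 to 10.7 ± 2.53 (limma adjusted p = 0.00022). The remaining calls fell on FGF homologous factors, which stay inside the cell and do not bind FGF receptors in the usual way: Fgf13 rose by 1.49, Fgf14 fell by 1.65 and Fgf11 fell by 0.94 on the log2 scale. Fgf1, a ligand known from the fat response to feeding, was at 50.6 ± 15.7 and 61.0 ± 9.79 and was not called (limma adjusted p = 0.17). Without AdCKO libraries 1, 2 and 4, 4 ligands were tested, with 1 called higher (Fgf10) and 2 lower (Fgf11 and Fgf14).

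The relay that carries an FGF receptor signal to ERK was called lower more often than higher under the authors' scaling, with 8 of 18 genes lower and 2 higher, and this turned to 0 lower and 10 higher when every library had the same total. The median log2 difference of the list was -0.16 under the first scaling and 0.32 under the second, against -0.01 and 0.47 for all genes. Among genes called lower were Gab1, a docking protein (37.6 ± 3.37 to 25.8 ± 1.36), Sos2, an exchange factor for Ras (95.2 ± 5.39 to 66.7 ± 4.76), and Ptpn11, the phosphatase SHP2 (356 ± 30.2 to 257 ± 7.32). Ptpn11 was at 0.019 with the same total in every library, so its direction depends on the scaling. Grb2, the adapter between receptor and Sos, rose from 104 ± 3.81 to 157 ± 14.0 (log2 difference 0.59, limma adjusted p = 1.5e-05), and Nras rose by 0.39. Without AdCKO libraries 1, 2 and 4, 4 relay genes were called lower (Gab1, Sos2, Ptpn11 and Map2k2) and 1 higher (Grb2).

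Genes that ERK signaling is known to induce, together with its feedback inhibitors, were called higher in 6 of 14 tested cases and lower in 1, with a median log2 difference of 0.85. With the same total, 15 were tested, 12 were called higher and 0 lower, and the median was 1.28 against 0.47 for all genes. Myc rose from 26.3 ± 6.44 to 153 ± 18.9 (log2 difference 2.52, SE 0.14, limma adjusted p = 4.2e-08), Fos from 9.15 ± 3.13 to 37.9 ± 11.0, and Ccnd1, cyclin D1, from 51.6 ± 14.3 to 141 ± 22.6. Etv5, Dusp5 and Spred1 rose by 1.07, 0.92 and 0.81. Dusp6 and Spry4, feedback inhibitors of ERK signaling, were not called under the authors' scaling. Neither were Dusp4, Spry1, Spry2, Spred2 and Egr1. Dusp6, the ERK phosphatase, was at 147 to 275 in Control and 119 to 250 in AdCKO, a log2 difference of -0.07. Spry4 had a difference of 0.89 (limma adjusted p = 0.011), with AdCKO library 4 the lowest at 31.5 and the others between 59.6 and 75.5. Ier3 fell by 0.92 under the authors' scaling, a call that was lost with the same total (-0.44, limma adjusted p = 0.026). These genes respond to many growth factors and are also active in macrophages and fibroblasts, whose markers rose here, and the part of FGF21 in them was not tested.

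**Figure D3:**
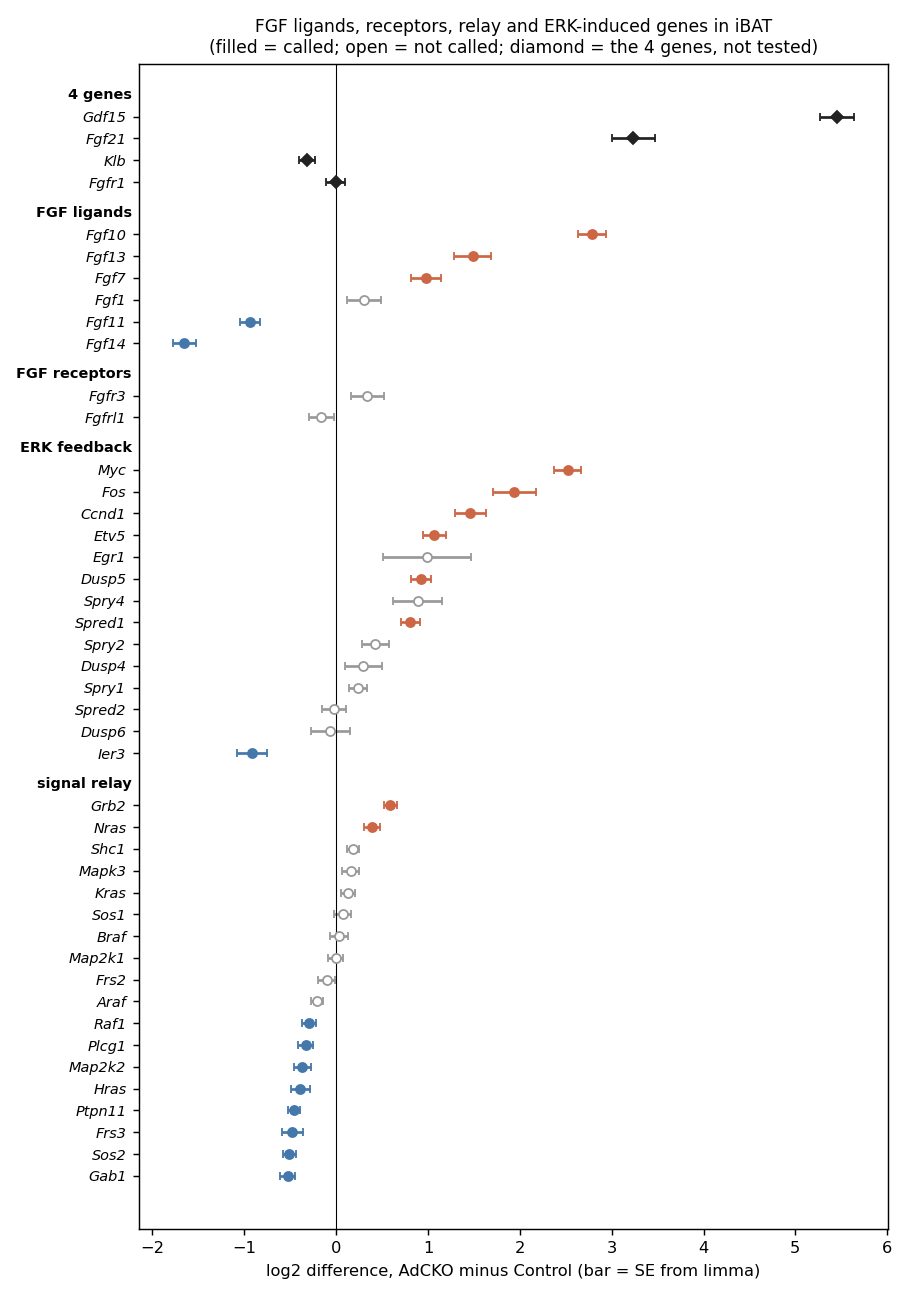
Log2 difference between AdCKO and Control (log2 of normalized reads per kb + 1) for the 4 genes and the tested FGF ligands, FGF receptors, ERK-induced genes and relay genes. Bars are SE, filled circles are called genes (limma adjusted p under 0.01), open circles are not called and diamonds are the 4 genes, shown without a test. Gdf15 stands at 5.45 and Fgf21 at 3.24, beyond all other genes shown, and the relay genes lie between -0.53 and 0.59.

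Fat genes known to be raised by FGF21 split. Of 9 tested, 2 were called higher and 5 lower, with a median log2 difference of -0.52, and 4 were higher and 4 lower when all libraries had the same total. Ppargc1a, the coactivator of mitochondrial biogenesis, was at 83.9 to 135 in Control and at 452, 327, 901, 247 and 725 in AdCKO libraries 1 to 5, a log2 difference of 2.24 (SE 0.30, limma adjusted p = 3.7e-05). Slc2a1, the glucose transporter GLUT1, rose from 23.9 ± 2.52 to 57.1 ± 8.37. Ucp1 fell by 1.42 and Cidea by 1.63 on the log2 scale (under quantile normalization Ucp1 was at -0.41 and was not called), and Cpt1b, Cox7a1 and Adipoq were called lower too, with log2 differences of -1.32, -1.45 and -0.52. The Adipoq call was lost without Control library 2 or 3. Ucp1, Cidea and Adipoq are on the brown adipocyte marker list as well. Dio2, the thyroid hormone deiodinase, was at 82.8 to 294 in Control and 182 to 367 in AdCKO and was not called.

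For GDF15 the receptor gene itself, Gfral, was not analysed here. Ret, its signaling partner, stayed below the filter at 3.04 to 4.02 in Control and 7.09 to 8.43 in AdCKO, without overlap. Of the co-receptors of the related GDNF ligands, Gfra3 rose from 13.9 ± 1.53 to 27.6 ± 2.15 and Gfra2, which passed the filter in AdCKO alone, from 5.69 ± 0.924 to 10.8 ± 1.09, while Gfra4 was not called. Of the 8 other GDF ligand genes measured here 1 was tested, Gdf10, and it rose from 22.1 ± 2.15 to 89.7 ± 12.1 (limma adjusted p = 2.6e-08). Without AdCKO libraries 1, 2 and 4, 1 co-receptor gene, Gfra3, was called higher.

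Proteases that act on the mitokines or their receptors moved in both directions. Of 6 tested, 2 were called higher and 2 lower. Fap, whose product clips the tail of FGF21 that binds beta-Klotho, rose from 8.05 ± 1.26 to 18.3 ± 1.26 (log2 difference 1.10, limma adjusted p = 3.3e-06). Mmp14, a membrane protease that cuts GFRAL, rose from 38.4 ± 6.14 to 233 ± 35.4. Which cells of the tissue made Fap and Mmp14 was not tested. The proprotein convertases Furin and Pcsk6, of the family that frees mature GDF15 from its precursor, fell by 0.85 and 1.32 on the log2 scale. When all libraries had the same total, 7 were tested, with 4 called higher and 2 lower.

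Among transcription factors known to act on Gdf15 or Fgf21, 7 of 17 were called higher and 2 lower, with a median log2 difference of 0.02. Atf4 was at 440 to 837 in Control and at 1343, 1396, 1811, 1049 and 1519 in AdCKO libraries 1 to 5, a log2 difference of 1.22 (SE 0.18, limma adjusted p = 6.3e-05). Ddit3, which encodes CHOP, rose from 219 ± 7.97 to 1448 ± 256 (log2 difference 2.70, SE 0.11), and Atf3 from 15.9 ± 2.81 to 312 ± 57.9 (4.21, SE 0.14). Atf5, Nupr1 and Trp53, the gene of the GDF15 inducer p53, rose by 0.98, 0.87 and 1.25. Mlxipl, the carbohydrate-sensing factor ChREBP, fell by 1.79, from 1567 ± 229 to 452 ± 65.8. Ppara, the fasting factor that drives Fgf21 in liver, was at 586 ± 122 and 415 ± 142 (limma adjusted p = 0.043), and Pparg fell by 0.47 under the authors' scaling but was at 0.015 with the same total. The Pparg call was also lost when any 1 of Control libraries 1, 4 and 5 or AdCKO libraries 1, 2 and 4 was left out, and 4 factors were called lower without AdCKO library 5.

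Of 13 other targets of ATF4, 9 were called higher and 1 lower, with a median log2 difference of 1.57. Trib3, a pseudokinase that restrains ATF4, was at 47.5, 41.9, 57.7, 50.9 and 51.7 in Control libraries 1 to 5 and at 435, 466, 612, 447 and 641 in AdCKO. Psat1 and Phgdh, of serine synthesis, rose by 3.80 and 2.28, and Mthfd2, of the mitochondrial folate cycle, by 3.43. Aldh1l2, Chac1, Cth, Pck2 and Shmt2 were also called higher. Asns, asparagine synthetase, was at 341 ± 24.9 and 387 ± 25.0 (log2 difference 0.18, limma adjusted p = 0.037), and Sesn2 and Ddit4 were not called either. Vldlr fell from 196 ± 24.6 to 110 ± 8.85. Of 11 ATF4 targets with a promoter window, 4 held the composite element that the Fgf21 window holds. They were Chac1 and Pck2, called higher, Asns, not called, and Vldlr, called lower.

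**Figure D4:**
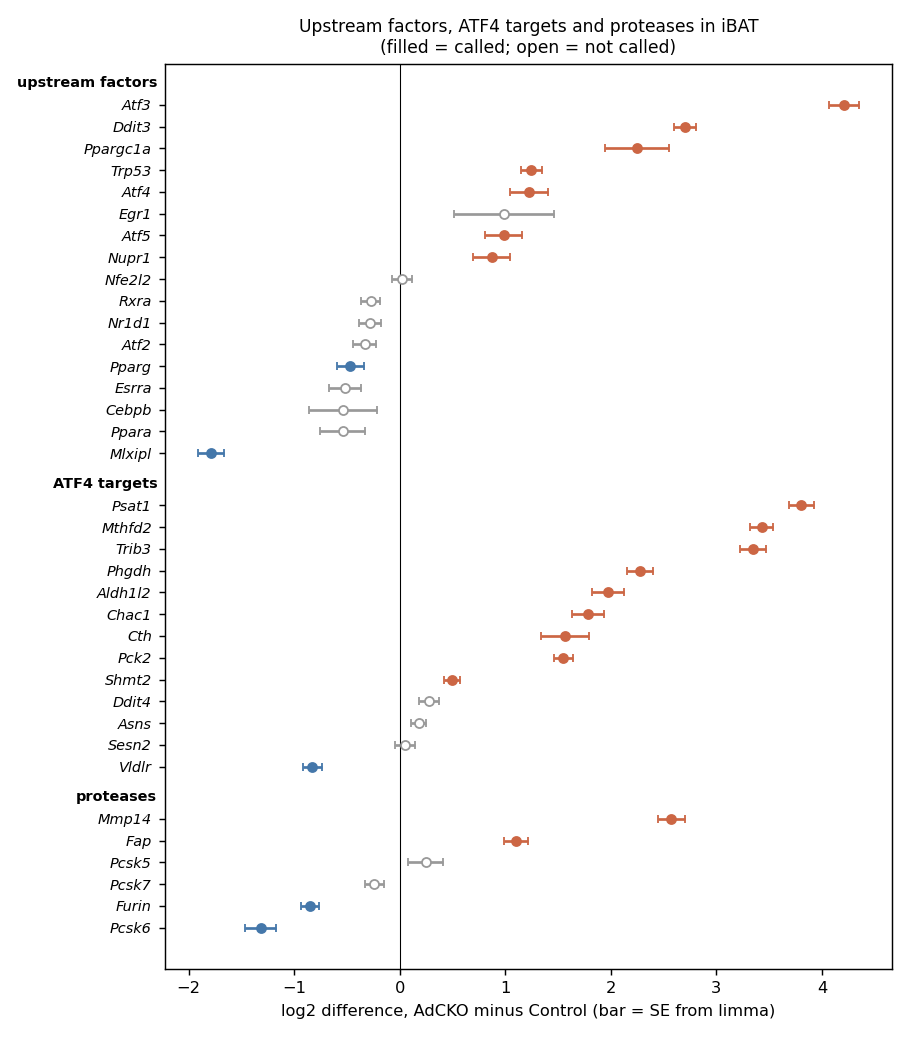
Log2 difference between AdCKO and Control (log2 of normalized reads per kb + 1) for tested transcription factors upstream of Gdf15 or Fgf21, targets of ATF4 and proteases. Bars are SE, filled circles are called genes (limma adjusted p under 0.01) and open circles are not called. Atf3 (4.21) and Psat1 (3.80) lie highest, Mlxipl (-1.79) lowest.

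Other factors that fat secretes moved both ways, with 5 of 11 called higher and 4 lower, or 7 and 2 with the same total in every library. Lcn2, lipocalin-2, rose from 19.2 ± 2.65 to 192 ± 30.5 (log2 difference 3.25), beside a difference of 3.24 for Fgf21 from a like Control level. Fndc5, Metrnl, Igf1 and Bmp8b rose by 2.03, 2.00, 1.57 and 1.15. Nrg4, a brown fat factor that acts on the liver, fell from 821 ± 53.2 to 311 ± 50.5, and Rbp4, Vegfa and Adipoq also fell. Macrophage and fibroblast markers rose in the same libraries, and which cells made these factors was not tested.

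The genes whose pattern over the 10 libraries lay nearest to each of the 4 genes were found by the root mean square difference of log2(value + 1), each gene taken relative to its own Control mean. For Gdf15 they were Lgals3 (0.56), Mmp12 (0.63), Atp6v0d2 (0.78), Ctss (0.80) and Gpnmb (0.83). Ctss is on the macrophage list, and Lgals3, Mmp12 and Gpnmb are known to be strong in lipid-laden macrophages. Among the AdCKO libraries alone, Ctss stood in another order than Gdf15. From low to high it was 5, 3, 1, 2, 4 for Ctss and 4, 5, 1, 2, 3 for Gdf15. In library 4 Ctss was at its highest (1600) and Gdf15 at its lowest (476). For Fgf21 they were Trib3 (0.29), Mreg (0.33), Nceh1 (0.33), Map1b (0.34) and Prrx1 (0.35), and Trib3 is on the ATF4 list. Trib3 was not among the nearest 5 when a pseudocount of 10 was used, whereas the other 4 were. A gene can lie near only where its difference between groups is of like size. For Klb (Trub1 nearest, 0.067) and Fgfr1 (Tmtc1 nearest, 0.089) the distances were smaller, as were the differences between groups.

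Genes beside the 4 were read in the same way, since reads of a neighbor could be counted with them. Beside Gdf15, Lrrc25, at a distance of 8544 bases, rose from 15.2 ± 4.64 to 69.2 ± 15.3, a log2 difference of 2.13 against 5.45 for Gdf15, and Pgpep1 on the other side was not called. Beside Fgf21, Fut1 at 2116 bases was at 0.405 to 0.434 in Control and 0.417 to 0.464 in AdCKO, below the filter, and Bcat2 was at 469 ± 112 and 453 ± 58.0. Beside Klb, Rpl9 rose from 73.8 ± 4.24 to 114 ± 19.0 and Rfc1 was not called. Beside Fgfr1, Letm2 fell from 25.4 ± 2.21 to 16.3 ± 1.53, and Tacc1 fell by 0.47 but was at 0.012 with the same total. None of the genes beside Fgf21 and Gdf15 moved by as much as they did.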

How the data were processed

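Polyadenylated RNA of iBAT from 5 Control and 5 AdCKO mice was sequenced by the authors. They aligned it to mm9 using STAR, took exon counts from iRNA-seq and scaled these by DESeq2, and the versions of these tools are not given in the sources used here. What the authors deposited is a signal, normalized reads per kb, and not counts: none of the values is 0 and the smallest is 0.0532. Depth before scaling is unknown, so precision is the spread between mice, and p-values measure that spread alone. The deposited fold changes, adjusted p-values and lists of called genes from the authors' own comparison were not used.

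Groups and replicate numbers came from the sample labels. After adding a pseudocount of 1 and taking log2, the 11244 of 15075 genes with a mean of at least 10 in either group were tested by limma 3.58.1 in R 4.3.3 (two-sided, lmFit and eBayes with trend), Benjamini-Hochberg adjusted over all of them and called at 0.01. The script was tested on simulated data. The 4 genes and the 11 pathway and 7 marker lists were chosen with earlier results of these data known, and 1 listed gene is not reported here. The text names the 4 genes, the 5 most like each, their neighbors, up to 6 genes of each list by p, those against a list's direction or most abundant, and the FGF ligands and receptors past the filter. Others, such as Fgfr2, Fgfr4, Ret, Dusp6, Asns, Dio2 and Ppara, were named after their values were seen. Deposited starts are 0-based (7746 of 14154 matched genes lie 1 base below an annotated start) and are printed 1-based. Promoters are RefSeq windows of 250 bases, found for 3 of the 4 genes. Figures were made in Python 3.11.15 with matplotlib 3.10.9. Alternatives were other pseudocounts (0.1, 10), no filter, other scalings, other limma settings, a replicate block, each library left out, an adjusted p of 0.05 and, added after seeing the data, AdCKO libraries 1, 2 and 4 left out.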

Additional observations from a re-analysis of the deposited data

Results flagged for a closer look

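A library stood far from the other 4 of its group for 8 of the 146 group values examined (the gap to its neighbor exceeded 0.71 of the group's range), and chance alone gives about 1 in 20. None of the 4 genes was among them. On the FGF side, Fgf10 in Control was lowest in library 1 at 5.65 normalized reads per kb, with the others at 9.59 to 10.7, and Fgf13 in Control was highest in library 3 at 4.31, with the others at 3.52 to 3.74. Frs3, an adapter of the receptors, was highest in AdCKO library 3 at 20.2, with the others at 15.7 to 16.7. Slc2a1 in AdCKO was lowest in library 5 at 42.6, with the others at 57.6 to 63.5, and Cidea in AdCKO was highest in the same library at 10995, with the others at 4602 to 5710. Pck2 was lowest in Control library 3 at 24.0, with the others at 30.3 to 32.4, and lowest in AdCKO library 1 at 80.0, with the others at 90.2 to 93.1. Nrg4 in Control was highest in library 1 at 915.6, with the others at 788 to 806.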

How the results depend on the processing

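The directions of Gdf15 and Fgf21 held under every alternative run. With a pseudocount of 10 their log2 differences were 4.86 and 2.74. With the same total in every library they were 5.92 and 3.70, Klb was at 0.16 and Fgfr1 at 0.47, 7013 genes were called higher and 1094 lower (2879 and 3152 otherwise), and listed genes were called higher in 66 cases and lower in 11 (38 and 24 otherwise). Under that scaling Pparg (0.015), Ptpn11 (0.019) and Tacc1 (0.012) changed sign, the calls of Adipoq, Frs3, Gab1, Ier3, Letm2, Sos2 and Vegfa were lost, and under quantile normalization Adipoq did (0.30) and the calls of Pparg, Ucp1 and Vegfa were lost. Without AdCKO libraries 1, 2 and 4 Fgf21 was at 3.72 and Fgfr1 at -0.24, and the calls of Frs3, Nras, Pparg, Tacc1 and Vegfa were lost. Leaving out each library in turn gave 2643 to 2887 genes higher, 2880 to 3066 lower, 38 to 40 listed genes higher, 22 to 26 lower, and log2 differences of 5.29 to 5.61 for Gdf15, 3.04 to 3.43 for Fgf21, -0.35 to -0.26 for Klb and -0.06 to 0.08 for Fgfr1. Samples with the same replicate number share only the number (correlation of their deviations -0.27 to 0.098, and none was closest to its own number). With the replicate block 2592 genes were called higher and 2838 lower, 39 and 21 of them listed, and the calls of Adipoq, Frs3 and Pparg were lost.

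The depth behind each value is unknown, so the counting error of values near or below the filter, such as those of Fgfr2 and Ret, could not be estimated. With no zeros and no whole reads in the table, ratios and spreads of low genes such as Gdf15 and Fgf21 in Control depend on how the deposited values were made. The cause of the lower totals in AdCKO was not tested.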
